A study of Mus musculus with 72 samples.

Results

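The semaphorins, their plexin receptors and their neuropilin co-receptors were followed as one group of 31 genes among the 55401 genes counted in these mouse brain libraries. The members were chosen by name: a gene entered when its symbol was that of a semaphorin, plexin or neuropilin, whatever its counts were. They comprise 20 semaphorins in 5 classes, 9 plexins and 2 neuropilins, and all 31 had enough counts to be tested in every comparison. Bulk RNA sequencing was made of the brain of C57Bl/6 pups (C57Bl/6NTac in the methods) in 72 libraries, which fall into 12 groups by exposure window, drug and labelled sex.

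PND1 pups were born to dams that carried an osmotic minipump that released saline or morphine (10 mg/kg/day), and were dissected 6 h after their discovery (4 libraries labelled female and 6 labelled male for morphine, 7 and 7 for saline). PND14 pups had no prenatal drug, were injected with morphine at 10 mg/kg or with saline 2 times a day from PND1, and were dissected 6 h after the last injection (6 libraries in each of the 4 groups). 3-Tri pups received both, the pump before birth and the injections after it, and were moved to a surrogate dam (6 libraries in each of the 4 groups). Per the methods they were dissected 6 h after the last injection, as PND14 pups were, but no postnatal day is labelled for them. Saline pups of each window had the same pump or injections without the drug. The methods name the right hemisphere as the tissue and the design text names cortex. The litter of each pup was not stated, so p-values measure the spread between pups that may be littermates.

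Total counts ran from 20742862 to 27333125 in the PND1 libraries, from 4407544 to 21404819 in the PND14 libraries and from 3113919 to 19938980 in the 3-Tri libraries, and the 2 smallest libraries lay in PND14 morphine females and 3-Tri saline males. Sex-linked genes went against the labelled sex in 4 of 24 PND1 libraries, 0 of 24 PND14 libraries and 12 of 24 3-Tri libraries, so female and male mean the labelled sex throughout. Summed markers of forebrain neurons were present in every group, and summed markers of hindbrain and spinal cord were 14.0 to 81.7 CPM in PND1 saline libraries but 1.34 to 7.28 CPM in PND14 saline libraries. Levels are in CPM, the counts of a gene divided by the normalised total of its library, on 1 scale for all 72 libraries. The raw count of a member in a library was 3 at the lowest, for Sema3b, and the median count over libraries lay between 63 for Sema3b and 3092 for Plxna2. In bulk tissue, fewer cells of a type and less RNA in each cell cannot be told apart.

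Semaphorins are secreted or membrane-bound proteins that steer growing axons and migrating cells, mostly by repulsion, and later act on dendrites, synapses, blood vessels and glia. They bind plexins, single-pass receptors whose intracellular part switches off small GTPases of the Ras family and so collapses the growth cone. Secreted class 3 semaphorins mostly need a neuropilin to hold them to an A plexin, with Nrp1 serving Sema3a and Nrp2 serving Sema3f, whereas Sema3e binds Plxnd1 directly. Membrane-bound class 4 members act largely through B plexins, class 6 members through A plexins, and Sema7a through Plxnc1 and integrins.

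To show where the genes that moved furthest with age start, the 250 bases before the transcription start are given for Sema3e and Sema7a, which rose between PND1 and PND14, and for Plxna3 and Plxnb2, which fell. They were the members with the largest changes whose upstream sequence held no annotated exon and led into a known transcript. The sequences are from RefSeq on GRCm38.p6, read 5′ to 3′ along the gene, with each CG dinucleotide in capitals.
Sema3e, chr5:14025026-14025275, plus strand: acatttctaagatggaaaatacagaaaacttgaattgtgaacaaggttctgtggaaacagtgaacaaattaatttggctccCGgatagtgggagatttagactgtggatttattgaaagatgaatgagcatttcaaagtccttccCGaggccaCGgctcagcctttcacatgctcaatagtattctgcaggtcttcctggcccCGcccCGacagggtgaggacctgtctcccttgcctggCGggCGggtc
Sema7a, chr9:57939862-57940111, plus strand: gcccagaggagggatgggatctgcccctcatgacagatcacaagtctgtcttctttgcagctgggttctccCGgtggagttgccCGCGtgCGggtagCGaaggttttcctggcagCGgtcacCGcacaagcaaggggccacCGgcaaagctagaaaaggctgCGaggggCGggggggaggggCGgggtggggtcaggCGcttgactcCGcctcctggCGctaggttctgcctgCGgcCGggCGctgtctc
Plxna3, chrX:74328816-74329065, plus strand: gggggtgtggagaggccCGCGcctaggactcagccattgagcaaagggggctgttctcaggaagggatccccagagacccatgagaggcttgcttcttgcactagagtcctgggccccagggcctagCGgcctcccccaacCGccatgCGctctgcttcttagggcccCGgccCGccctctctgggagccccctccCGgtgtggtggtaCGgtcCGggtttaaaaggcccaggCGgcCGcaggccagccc
Plxnb2, chr15:89180789-89181038, minus strand: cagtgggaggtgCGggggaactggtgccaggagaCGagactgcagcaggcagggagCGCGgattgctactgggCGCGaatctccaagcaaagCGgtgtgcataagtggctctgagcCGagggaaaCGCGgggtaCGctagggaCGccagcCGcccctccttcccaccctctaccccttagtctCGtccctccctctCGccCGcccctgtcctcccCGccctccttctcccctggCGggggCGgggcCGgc

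The Sema3e window held 7 CG dinucleotides at 48% GC, the Sema7a window 17, the Plxna3 window 12 and the Plxnb2 window 20. RefSeq entries were matched for 26 of the 31 members, 37 entries in all, and Sema3b, Sema3f, Sema6a, Plxna1 and Plxna4 had none. Taking each member's entry richest in CG, the median was 8.5 for the 10 members that rose with age and 19.5 for the 14 matched members that fell. Over all genes tested that had an entry the medians were 15 for those that rose and 15.5 for those that fell. The letters GGGCGG, which themselves hold a CG, were found on either strand in 27 of the 37 entries and in 32.7% of all 32841 promoter windows, TATAAA in 0 of the 37 and 12.4% of all, and CACGTG in 2 of the 37 and 6.02% of all. These shares cover all promoters, with a median of 6 CG dinucleotides, also those of genes not tested. They are no matched background for the members.

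The first comparison addressed how this guidance system stood in the newborn brain. Per kilobase of annotated exon, the scale on which genes can be compared with each other, the PND1 saline pups (n = 14) were led by Sema6b, a transmembrane ligand of A plexins, with a median of 27.2 CPM per kb. Sema7a, the only GPI-anchored semaphorin, followed at 26.8, then Plxna1 at 25, Plxna3 at 23.8 and Plxnb2 at 23.8 CPM per kb. The ranges over libraries of neighbours in this order overlapped for 28 of 30 neighbouring pairs, and the 2 gaps lay between Nrp1 and Sema3a and between Sema5a and Sema3e. The 5 lowest were Sema3e at 1.03, Sema3b at 1.02, Sema3g at 0.767, Sema3d at 0.716 and Plxnb3 at 0.411 CPM per kb, so that 4 of the 5 lowest were secreted class 3 ligands.

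At PND14 (saline, n = 12) Sema7a and Sema6b stood first with medians of 46.3 and 44.4 CPM per kb and overlapping ranges. Plxnd1 at 25.4, Sema4d at 19.4 and Plxna1 at 18.9 CPM per kb followed, and the ranges of Sema6b and Plxnd1 and of Plxnd1 and Sema4d did not meet. The lowest were Sema3f at 3.5, Sema3a at 2.42, Sema3d at 1.96, Sema3g at 1.5 and Sema3b at 0.741 CPM per kb, all class 3. Plxnb3, the lowest of the 31 at PND1, ranked 20 at PND14, whereas Plxna3 went from rank 4 to rank 21.

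Between PND1 and PND14 in saline pups, 28 of the 31 members changed, 10 higher and 18 lower (edgeR quasi-likelihood test, Benjamini-Hochberg adjusted p under 0.05 over 22010 genes). Most of the transcriptome changed over the same interval: 84.9% of all genes tested passed, 41.7% higher and 43.2% lower. At an unadjusted p under 0.05 there were also 28 members, against 85.4% of all genes. The median log2 fold change of the members was -0.39 against -0.02 for all genes, and the median size of the change without its sign was 0.73 against 0.58. The ranges of the PND14 and PND1 saline libraries did not overlap for 21 members, 9 higher and 12 lower, against 48.7% of all genes tested. Age goes together with the pump or injections, the rearing, the sample naming and the library depth of the window, and with the level of hindbrain and spinal cord markers. These cannot be told apart here.

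By role, the counts stand beside 41.7% of all genes higher and 43.2% lower. Of 20 ligands, 8 rose and 9 fell, near the shares of all genes (median log2 fold change -0.05). Of 9 plexins, 2 rose and 7 fell (median -0.48), and both neuropilins fell (median -0.82). Summed per kilobase, the 20 ligands stood at 210 ± 8.55 CPM per kb at PND1 (SD, n = 14) and 211 ± 4.26 at PND14 (SD, n = 12). The 9 plexins went from 145 ± 9.32 to 107 ± 5.66 CPM per kb and the neuropilins from 20.04 ± 1.20 to 10.7 ± 0.526 CPM per kb, neither with overlapping ranges.

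**Figure D1:**
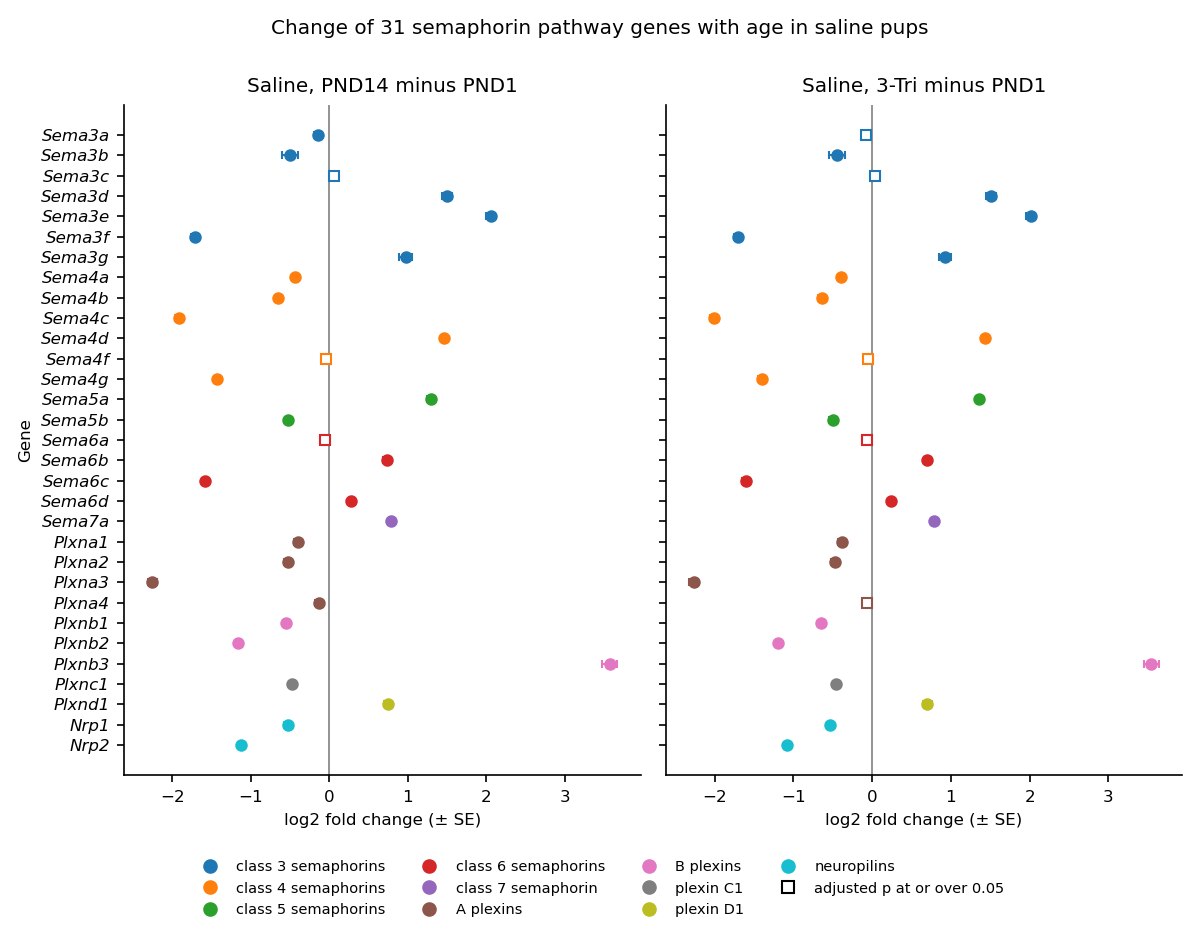
Change of each of the 31 genes in saline pups from PND1 to PND14 (left) and to 3-Tri (right), as log2 fold change ± SE on the x axis, with colours for the classes and open squares for genes that did not pass the adjusted p threshold. Plxnb3 stands furthest to the right at 3.57 and Plxna3 furthest to the left at -2.25, and each panel has 10 genes that rose.

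Among the secreted class 3 ligands, 3 rose, 3 fell and Sema3c did not pass. Sema3e, a ligand of Plxnd1 in axon and vessel patterning (ENSMUSG00000063531, chr5:14025276-14256689), had 7.79 to 12.1 CPM at PND1 (median 9.53, n = 14) and 38.2 to 46.7 CPM at PND14 (median 39.6, n = 12), a rise of 4.16-fold (log2 fold change 2.06 ± 0.058 SE, adjusted p = 2.06e-44). Every PND14 library lay above every PND1 library. Sema3d, another secreted ligand (chr5:12383385-12588948), went from 4.21 to 7.97 CPM (median 6.15) to 13.9 to 22.7 CPM (median 16.9), and its log2 fold change was 1.5 ± 0.065 SE. Sema3g, which is made by endothelial cells and acts through Nrp2, went from a median of 3.48 CPM (2.91 to 4.51) to 6.80 CPM (5.32 to 8.57), with a log2 fold change of 0.97 ± 0.078 SE. Both had separate ranges as well.

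Sema3f, the repellent read by Nrp2 (ENSMUSG00000034684, chr9:107681500-107710475), went the other way. It ranged from 45.2 to 68.2 CPM at PND1 (median 57.7) and from 14.4 to 20.8 CPM at PND14 (median 18.2), 3.27-fold lower (log2 fold change -1.71 ± 0.053 SE, adjusted p = 5.49e-42), with a wide gap between the groups. Sema3b, which lies beside it on chromosome 9 (chr9:107597674-107609229), fell by 0.50 on the log2 scale with overlapping ranges, and Sema3a, the founding axon repellent, by 0.14 (adjusted p = 0.00485). Sema3c had 43.5 to 56.9 CPM at PND1 and 44.4 to 57.0 CPM at PND14 (log2 fold change 0.06 ± 0.035 SE, adjusted p = 0.13). Sema3a, Sema3c, Sema3d and Sema3e all lie on chromosome 5 between positions 12383385 and 17730268, and of these 4 neighbours 2 rose, 1 fell slightly and 1 did not pass.

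Class 4 fell in 4 of 6 members. Sema4c, a ligand of Plxnb2 (ENSMUSG00000026121, chr1:36548639-36558349), ranged from 72 to 93.5 CPM at PND1 (median 82.1) and from 15.5 to 24.9 CPM at PND14 (median 22.3), 3.78-fold lower (log2 fold change -1.92 ± 0.05 SE, adjusted p = 1.94e-46). Sema4g dropped from 174 to 227 CPM (median 206) to 69.7 to 84.2 CPM (median 75.4), with a log2 fold change of -1.43 ± 0.04 SE. Sema4b dropped from 31.3 to 40.6 CPM (median 37.2) to 20.5 to 26.9 CPM (median 23.3), with a log2 fold change of -0.65 ± 0.046 SE. In all of these the highest PND14 library was below the lowest PND1 library. Sema4a fell by 0.43 on the log2 scale with overlapping ranges, and Sema4f did not pass (-0.04 ± 0.035 SE, adjusted p = 0.317). An opposite-strand transcript overlaps 7.27% of the exon bases of Sema4c, and since the strand setting of the counting is not given, its reads cannot be separated.

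Sema4d was the class 4 exception. This ligand of Plxnb1, present on oligodendrocytes and immune cells (ENSMUSG00000021451, chr13:51685529-51793747), ranged from 47.2 to 64.8 CPM at PND1 (median 53.9) and from 139 to 164 CPM at PND14 (median 149), 2.76-fold higher (log2 fold change 1.46 ± 0.04 SE, adjusted p = 1.66e-45). No library of either age reached the other range.

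The other classes split within themselves. In class 5, whose members carry thrombospondin repeats, Sema5a went from 39.6 to 53.6 CPM (median 46.3) to 93.1 to 124 CPM (median 114; log2 fold change 1.30 ± 0.047 SE), while Sema5b fell by 0.52 on the log2 scale. In class 6, the transmembrane ligands of A plexins, Sema6c dropped from 114 to 155 CPM (median 136) to 41.3 to 51.5 CPM (median 44.8; log2 fold change -1.58 ± 0.043 SE), while Sema6b rose by a log2 fold change of 0.73 ± 0.042 SE and Sema6d by 0.28 ± 0.041 SE. Sema6a had medians of 111 and 103 CPM and did not pass (adjusted p = 0.193). Sema7a, which promotes axon growth through integrins, went from 78.2 to 103 CPM (median 88.2) to 143 to 164 CPM (median 153; log2 fold change 0.79 ± 0.039 SE).

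The receptors held the extremes in both directions, and both lie on the X chromosome. Plxnb3, a plexin B receptor of Sema5a found in oligodendrocytes (ENSMUSG00000031385, chrX:73757090-73772514), had 1.30 to 4.2 CPM at PND1 (median 2.67) and 27.2 to 35.9 CPM at PND14 (median 32.6), 11.9-fold higher (log2 fold change 3.57 ± 0.095 SE, adjusted p = 5.45e-46). Plxna3, the A plexin that pairs with Nrp2 for Sema3f (ENSMUSG00000031398, chrX:74329066-74344689), had 150 to 209 CPM at PND1 (median 188) and 33.1 to 43.7 CPM at PND14 (median 39.1), 4.76-fold lower (log2 fold change -2.25 ± 0.057 SE, adjusted p = 4.92e-47). Both pairs of groups were far apart.

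All 4 A plexins fell, but the others by far less than Plxna3: Plxna2 by 0.52, Plxna1 by 0.39 and Plxna4 by 0.13 on the log2 scale, each with overlapping ranges. Among B plexins, Plxnb2, the receptor of Sema4c in neural progenitors, dropped from 163 to 198 CPM (median 184) to 74.3 to 89.5 CPM (median 82.2; log2 fold change -1.16 ± 0.037 SE), and Plxnb1, the Sema4d receptor, fell by 0.55. Plxnc1, the Sema7a receptor, fell by 0.48. Plxnd1, the Sema3e receptor that is also found in blood vessels, went from 86.9 to 140 CPM (median 105) to 157 to 207 CPM (median 186; log2 fold change 0.75 ± 0.053 SE).

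Of the co-receptors, Nrp2 (chr1:62703285-62818695) dropped from 143 to 178 CPM (median 160) to 68.7 to 82.4 CPM (median 74.4; log2 fold change -1.12 ± 0.037 SE) and Nrp1 from a median of 61.7 CPM (52.7 to 70.0) to 42.6 CPM (37.5 to 46.5; log2 fold change -0.53 ± 0.044 SE). Neither overlapped. Read along known ligand and receptor pairs, Sema3f, Nrp2 and Plxna3 all fell, Sema4c and Plxnb2 both fell, and Sema3a and Nrp1 both fell. Sema3e and Plxnd1 both rose, as did Sema5a and Plxnb3. In contrast, Sema4d rose beside a lower Plxnb1, Sema7a beside a lower Plxnc1 and Sema3g beside a lower Nrp2. Sema6b and Sema6d rose and Sema6c fell, while all A plexins fell. Whether pairs moved together more often than other genes was not tested.

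**Figure D2:**
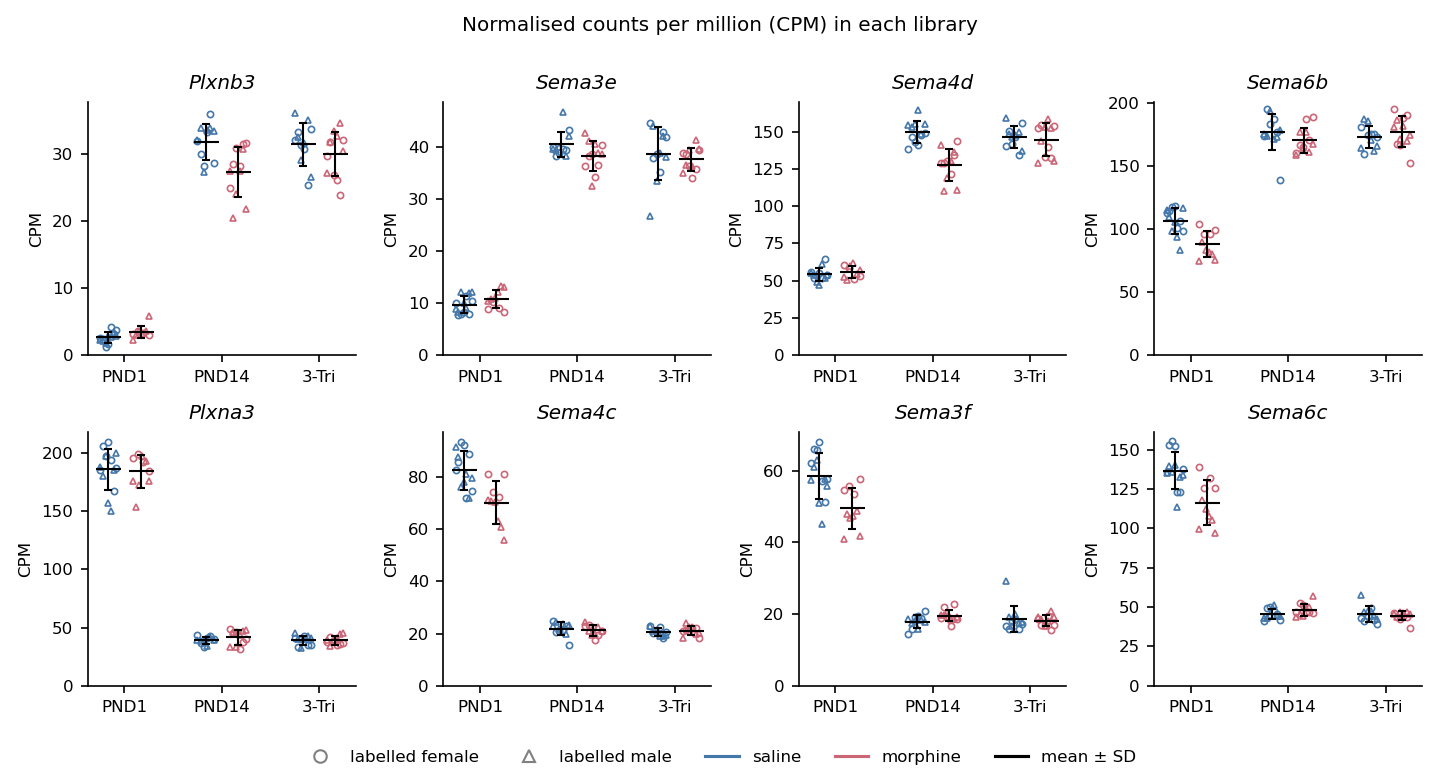
Normalised CPM (y axis from 0) in each library for 8 members by exposure window and drug, with circles and triangles for the labelled sex and bars for the mean ± SD of each drug and window. The upper row holds 4 members that rose from PND1 to PND14 and the lower row 4 that fell, and the 3-Tri libraries lie beside those of PND14.

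The member with the largest mean share went from Sema3f to Sema3c in class 3, from Sema4g to Sema4d in class 4, from Sema5b to Sema5a in class 5 and from Plxnb2 to Plxnb1 in the B plexins. Sema6b in class 6, Plxna1 in the A plexins and Nrp2 in the neuropilins led at both ages. On the per kilobase scale, Sema3f made up 46.0% ± 3.71 of the class 3 total at PND1 (SD, n = 14) and 15.8% ± 1.49 at PND14 (SD, n = 12), and Sema3e went from 4.28% ± 0.714 to 20.1% ± 1.22. Sema3c held 28.3% ± 2.14 and 33.2% ± 1.51, with overlapping ranges. In class 4, Sema4d went from 8.98% ± 0.644 to 34.1% ± 1.33, and Sema4g from 30.1% ± 0.706 to 15.4% ± 0.905. Sema6c went from 32.2% ± 1.75 to 10.2% ± 0.652 of class 6, and Sema6b from 37.5% ± 2.31 to 59.1% ± 2.80. Apart from Sema3c, none of these ranges overlapped between the ages.

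The receptors shifted less evenly. Plxna3 went from 31% ± 1.67 to 10.8% ± 0.644 of the A plexins, and Plxnb3 from 0.999% ± 0.305 to 18% ± 1.31 of the B plexins. Plxnb1 held 41.6% ± 1.86 and 43.0% ± 1.58 of the B plexins, a difference smaller than the spread. Nrp1 was the smaller of the 2 neuropilins at both ages, with 31.4% ± 2.05 and 40.7% ± 1.58. The lengths are those of all annotated exons of a gene joined, so a gene with unused long exons is placed too low on this scale.

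**Figure D3:**
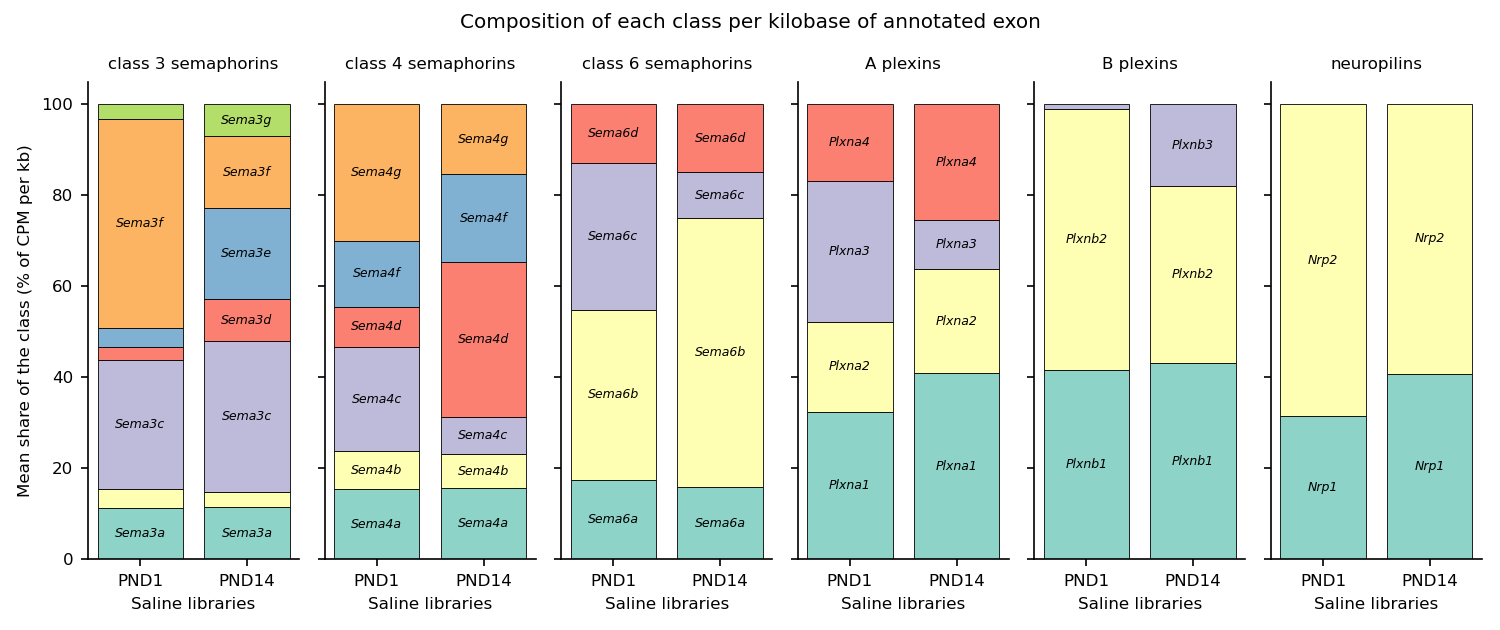
Mean share of each member in the summed CPM per kb of its class (y axis, %), in saline libraries of PND1 (n = 14) and PND14 (n = 12). Sema3f shrinks from 46.0% to 15.8% of class 3, Sema4d grows to 34.1% of class 4, Sema6b to 59.1% of class 6 and Plxnb3 to 18% of the B plexins, while Plxna3 shrinks to 10.8% of the A plexins.

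The 3-Tri saline pups gave a second set of older pups, whose day is not labelled. Against the same PND1 saline libraries, which both comparisons share, 26 of 31 members passed, 10 higher and 16 lower, against 85.1% of all genes (42.1% higher and 43.0% lower). The same number had an unadjusted p under 0.05, against 85.6% of all genes. Plxnb3 had a log2 fold change of 3.54 ± 0.095 SE, Sema3e 2.01 ± 0.058 SE, Plxna3 -2.26 ± 0.058 SE and Sema4c -2.01 ± 0.051 SE. Sema3a (-0.08, adjusted p = 0.111) and Plxna4 (-0.06, adjusted p = 0.247) did not pass there. Directly between 3-Tri and PND14 saline pups 0 members passed edgeR's test or DESeq2's and 1 had an unadjusted p under 0.05, Plxnb1 (log2 fold change -0.10 ± 0.04 SE). Of all genes 0 passed, so the background is 0%, and 3.28% had an unadjusted p under 0.05.

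Cell type markers moved with age too. The summed level of 5 oligodendrocyte markers, which include Mbp and Mog, was 157 to 204 CPM in PND1 saline libraries and 2847 to 4009 CPM in PND14 saline libraries, and all 5 rose (median log2 fold change 5.49). The 5 astrocyte markers summed to 384 to 581 CPM and 1301 to 1669 CPM, with 4 of 5 higher. The 5 endothelial markers summed to 115 to 151 CPM and 176 to 215 CPM, with 4 higher and 1 lower. The 6 neural progenitor markers summed to 194 to 256 CPM and 91.3 to 122 CPM, with 4 of 6 lower. All 14 hindbrain and spinal cord markers fell (median log2 fold change -5.15), with 1 of them, at PND14, at 0 in every saline library. Their part in the members' changes was not tested.

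Of 38 partners that act with or below these receptors, 34 changed between PND1 and PND14, 20 higher and 14 lower, beside 84.9% of all genes. The largest falls were those of Dpysl3 (log2 fold change -2.22 ± 0.053 SE) and Dpysl5 (-1.56 ± 0.046 SE), which belong to the collapsin response mediator proteins that relay Sema3a, of Cntn2 (-1.56 ± 0.05 SE), an axonal adhesion molecule, of the GTPase Rac3 (-1.48 ± 0.056 SE) and of Mical1 (-1.39 ± 0.051 SE), an actin-oxidising enzyme bound by A plexins. The largest rises were those of Mical2 (1.93 ± 0.046 SE), a relative of Mical1, and of Rras (1.14 ± 0.08 SE), the GTPase that plexins switch off. Rnd1 (1.07 ± 0.049 SE), which helps to activate plexins, Met (1.00 ± 0.073 SE), a receptor tyrosine kinase that binds B plexins, and Gipc1 (0.75 ± 0.039 SE), an adaptor of Nrp1, followed. The median over the partners was 0.11.

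The next question was whether prenatal morphine moved these genes in the newborn. In labelled males at PND1, 9 of 31 members changed, 1 higher and 8 lower, against 14.4% of all 21714 genes tested (6.31% higher and 8.08% lower). At an unadjusted p under 0.05 there were 16 members, against 29.9% of all genes. The median log2 fold change of the members was -0.05 against 0.01 for all genes, and the median size without sign was 0.17 against 0.12. Leaving out each PND1 library in turn gave 7 to 13 called members, and leaving out the libraries against their sex label gave 10.

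Sema6b, the ligand with the smallest p, had 83.4 to 116 CPM in saline males (median 105, n = 7) and 74.5 to 90.1 CPM in morphine males (median 81.1, n = 6), with a log2 fold change of -0.35 ± 0.062 SE (adjusted p = 0.000872). Of the 6 morphine libraries 4 lay below every saline library. Sema6c, its class 6 relative, had 114 to 140 CPM in saline (median 135) and 97.1 to 118 CPM in morphine (median 107), with a log2 fold change of -0.32 ± 0.059 SE (adjusted p = 0.00114), and 5 of 6 morphine libraries lay below all saline libraries. Sema4c had 72.1 to 91.6 CPM in saline (median 79.7) and 56.1 to 71.3 CPM in morphine (median 66.8), with a log2 fold change of -0.31 ± 0.064 SE (adjusted p = 0.00257). Its groups did not overlap, and here and below the share of all genes with separate drug groups was not computed.

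The secreted repellent Sema3f had 45.2 to 63.1 CPM in saline (median 57.6) and 41.1 to 48.8 CPM in morphine (median 47.0), with a log2 fold change of -0.29 ± 0.068 SE (adjusted p = 0.00551). Sema5b had 42.9 to 49.8 CPM (median 47.7) and 33.5 to 43.5 CPM (median 38.4), with a log2 fold change of -0.28 ± 0.062 SE (adjusted p = 0.00389). Sema7a had 79.3 to 103 CPM (median 91.3) and 70.9 to 81.6 CPM (median 74.6), with a log2 fold change of -0.25 ± 0.054 SE (adjusted p = 0.00283). In each of these 3 ligands all 6 morphine libraries lay below the saline median, but the groups overlapped.

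Of the 9 plexins, 2 B plexins passed. Plxnb2 went from a saline median of 188 CPM (163 to 198) to 163 CPM (158 to 179), with a log2 fold change of -0.17 ± 0.044 SE (adjusted p = 0.0131), and Plxnb1 from 161 CPM (148 to 172) to 147 CPM (139 to 152), with -0.13 ± 0.041 SE (adjusted p = 0.0393). The largest values among plexins did not pass, which were 0.48 ± 0.214 SE for Plxnb3 (adjusted p = 0.13) and -0.25 ± 0.086 SE for Plxnd1 (adjusted p = 0.0522). Sema6d, a class 6 ligand with roles in heart and brain development, was the 1 member that rose, from a median of 99.3 CPM (92.4 to 108) to 111 CPM (102 to 126), with a log2 fold change of 0.17 ± 0.057 SE (adjusted p = 0.0416). The groups overlapped in the 3 that passed. Leaving out 1 PND1 library at a time kept the Sema6d call in 12 of 24 settings (adjusted p up to 0.154) and the Plxnb1 call in 16 of 24 (up to 0.0788), and the other 7 calls in all 24. With the replicate number as a block, Sema6d, Plxnb1 and Plxnb2 lost their calls (adjusted p = 0.0631, 0.126 and 0.0855) and Sema3a and Sema4a gained them. Both neuropilins and all 4 A plexins did not pass, with log2 fold changes from -0.11 for Plxna1 to 0.09 for Plxna4.

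Base composition moved with the PND1 response. The 8 members that fell had a GC content of 56.9% to 63.2% in their annotated transcripts, and Sema6d had 49.0%. Of the 18 members at or over 55% GC, 17 had a negative log2 fold change (median -0.20), and of the 13 under 55%, 1 did (median 0.12). The same slope ran through all genes: 38.7% of the genes at or over 60% GC fell and 0% rose, whereas 0.842% of those under 45% fell and 15.1% rose. After a correction for GC content and length in each library, which also takes away any response that truly follows GC, 0 of the 31 members passed at PND1 in males. The adjusted p values were then 0.0753 for Sema4c, 0.0764 for Sema6b and 0.0995 for Sema6d, and the log2 fold changes were -0.19 ± 0.063 SE for Sema4c, -0.13 ± 0.043 SE for Sema6b and 0.14 ± 0.05 SE for Sema6d, the last close to its value as counted. For this and the corrected counts below, the share of all genes passing is not given, so they cannot be set against all genes. The same holds for the counts at PND1 and between windows without the libraries against their sex label. Summed hindbrain markers were 19.1 to 81.2 CPM in saline males and 31.5 to 137 CPM in morphine males, with 1 of 14 higher and 1 lower, and their part in the result was not tested.

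**Figure D4:**
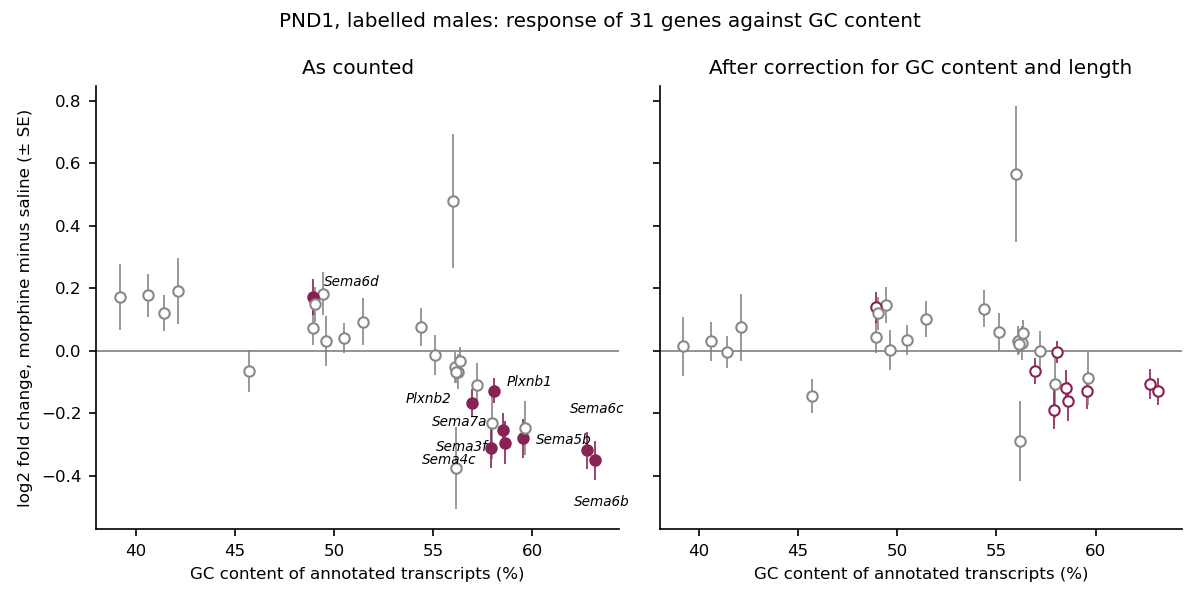
Log2 fold change ± SE of the 31 genes in labelled PND1 males, morphine minus saline (y axis), against the GC content of their annotated transcripts in % (x axis), as counted (left) and after the correction for GC content and length (right). Filled points passed the adjusted p threshold and purple marks the 9 genes that passed as counted, 8 of which sit between 56.9% and 63.2% GC, and no point is filled on the right.

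In labelled females at PND1, 0 of 31 members passed edgeR's test, 4 had an unadjusted p under 0.05 and DESeq2 also called 0. Of all genes 0% passed and 11.7% had an unadjusted p under 0.05. Sema6a had the smallest p, with 109, 107, 130 and 115 CPM in the 4 morphine libraries and 88.1 to 117 CPM in saline (median 103, n = 7), and a log2 fold change of 0.15 ± 0.062 SE (adjusted p = 0.332). Sema6d had 107, 95.2, 114 and 104 CPM against 80.6 to 104 CPM in saline (median 94.6), with 0.15 ± 0.064 SE (adjusted p = 0.357). Sema3b had 3.56, 4.94, 3.71 and 3.69 CPM against 3.78 to 5.35 CPM (median 5.02), with -0.29 ± 0.132 SE (adjusted p = 0.392). All 3 overlapped. Sema6b, the first in males, had 104, 96.5, 95.9 and 99.7 CPM in morphine females against 98.5 to 119 CPM in saline (median 113), with -0.15 ± 0.07 SE (adjusted p = 0.4).

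The difference between the sexes in this response passed for 0 members with edgeR or DESeq2, with 5 at an unadjusted p under 0.05 in edgeR (5.47% of all genes), and for 0% of all genes. The smallest p was that of Sema5b, which had 51.4, 39.4, 47.2 and 46.5 CPM in morphine females against 41.5 to 49.1 CPM in saline females (male minus female response -0.28 ± 0.092 SE, adjusted p = 0.871). With the sexes averaged, 11 members passed at PND1, 1 higher and 10 lower, against 16.8% of all genes (7.39% higher and 9.43% lower). Beside the 9 of the males these were Sema3b (-0.26 ± 0.088 SE, adjusted p = 0.0412) and Sema3g (-0.30 ± 0.099 SE, adjusted p = 0.0386), both at most 6.67 CPM in every PND1 library. Leaving out 1 PND1 library at a time kept the averaged calls of Sema3b and Sema5b in 11 of 24 settings. Those of Sema3g, Plxnb2 and Plxnb1 held in 15, 18 and 21. Without the libraries against their sex label 8 passed, and Sema3b, Sema3g and Plxnb2 did not (adjusted p = 0.0877, 0.0853 and 0.0518). After the GC and length correction 2 members passed, Sema6d (0.12 ± 0.038 SE) and Nrp1 (-0.15 ± 0.041 SE). Leaving out 1 library gave 7 to 15, and 7 without replicate 3 of the morphine females or without replicate 2 of the saline females.

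Postnatal morphine was asked next. In labelled males at PND14, 1 of 31 members passed, against 0.280% of all 19636 genes tested (0.0815% higher and 0.199% lower). At an unadjusted p under 0.05 there were 4 members, against 9.29% of all genes. Sema4d had 149 to 164 CPM in saline males (median 155, n = 6) and 110 to 141 CPM in morphine males (median 125, n = 6), with a log2 fold change of -0.31 ± 0.053 SE (adjusted p = 0.0119). Every morphine male lay below every saline male. In females it had 139 to 149 CPM in saline (median 145) and 122 to 143 CPM in morphine (median 130), with -0.13 ± 0.054 SE (adjusted p = 0.412), and 5 of 6 morphine females lay below all saline females. With the sexes averaged Sema4d fell by 0.22 on the log2 scale (SE 0.038, adjusted p = 0.00536), again the 1 member that passed, against 1.69% of all genes (0.626% higher and 1.06% lower). Plxnb3 (-0.22 ± 0.06 SE, adjusted p = 0.0546) and Sema3g (-0.28 ± 0.082 SE, adjusted p = 0.076) came next.

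Plxnb3 came next in males, with 27.2 to 33.8 CPM in saline (median 33.4) and 20.4 to 30.7 CPM in morphine (median 25.7), and a log2 fold change of -0.35 ± 0.084 SE that did not pass (adjusted p = 0.0742). It passed with DESeq2 (adjusted p = 0.0119). Plxnb1, the Sema4d receptor, did not pass, with a log2 fold change of -0.18 ± 0.063 SE (adjusted p = 0.287). Its 6 morphine libraries lay below all saline libraries, but the share of all genes with such separate drug groups was not computed. In females 0 members passed edgeR's test or DESeq2's, 5 had an unadjusted p under 0.05, and 0% of all genes passed, with 10.5% at an unadjusted p under 0.05. Sema3g led them, with 6.2 to 8.57 CPM in saline (median 7.43) and 4.58 to 6.38 CPM in morphine (median 5.57), and -0.41 ± 0.117 SE (adjusted p = 0.274). Sema3c had 49.5 to 57.0 CPM and 44.9 to 49.4 CPM, groups that did not overlap, with -0.16 ± 0.047 SE (adjusted p = 0.302).

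The 5 oligodendrocyte markers also had a lower median sum in PND14 morphine males than in saline males, with overlapping ranges. They summed to 3050 to 4009 CPM in PND14 saline males (median 3301) and 1911 to 3263 CPM in morphine males (median 2645), with 2 of 5 lower (median log2 fold change -0.56). In females the sums were 2847 to 3855 CPM and 2408 to 3272 CPM. With the sexes averaged 4 of 5 were lower, and no marker of oligodendrocyte precursors passed (418 to 455 CPM summed in saline and 392 to 481 CPM in morphine). The part of these cells in the Sema4d result was not tested. The call in males was lost without the animals of any of 3 of the 4 ID numbers that open the sample names, which lie within drug groups (adjusted p up to 0.894), while the log2 fold change stayed between -0.33 and -0.30. The averaged call was lost without 2 of the 4 (adjusted p up to 0.185), with log2 fold changes from -0.23 to -0.22.

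**Figure D5:**
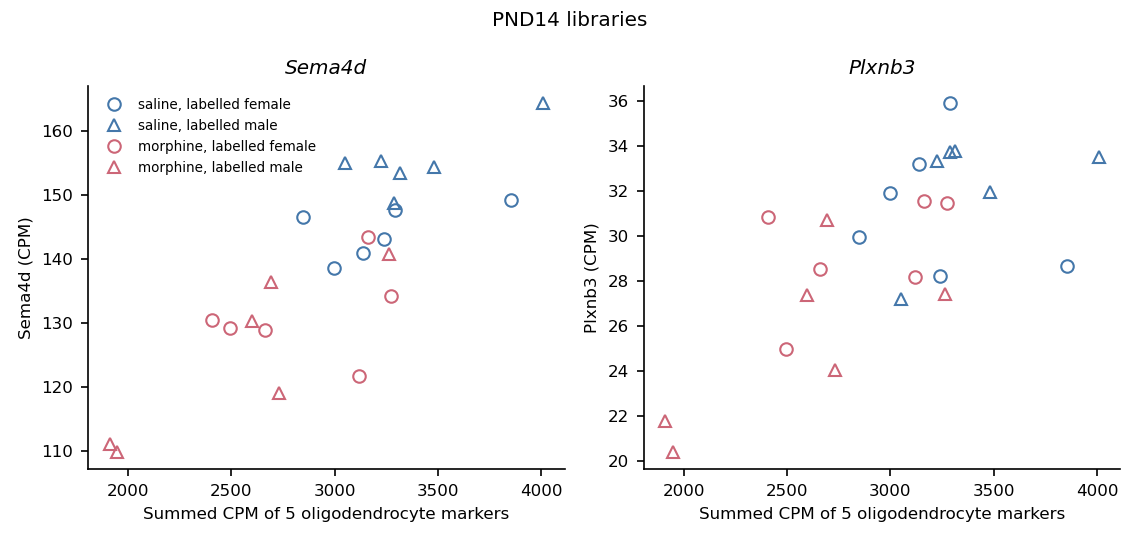
CPM of Sema4d (left) and Plxnb3 (right) on the y axis against the summed CPM of 5 oligodendrocyte markers on the x axis in the 24 PND14 libraries, with blue for saline, red for morphine and circles and triangles for labelled females and males. The 6 morphine males have 110 to 141 CPM of Sema4d, below the 149 to 164 CPM of the 6 saline males.

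In 3-Tri pups, exposed both before and after birth, 0 members passed in either labelled sex or with the sexes averaged (edgeR, and likewise DESeq2), also without the libraries against their label, and 0% of all genes passed in each. At an unadjusted p under 0.05 there were 2 members in males, 0 in females and 2 with the sexes averaged, against 4.98%, 2.41% and 4.88% of all genes. The 2 in males were Plxna4, with 152 to 209 CPM in saline (median 179) and 142 to 175 CPM in morphine (median 152; log2 fold change -0.21 ± 0.057 SE, adjusted p = 0.92), and Plxna2, with 175 to 203 CPM and 162 to 180 CPM (-0.15 ± 0.055 SE). Sema4f followed with -0.08 ± 0.053 SE. In females the first were Plxnb2 (0.09 ± 0.053 SE), Sema3b (-0.29 ± 0.172 SE) and Plxnb3 (-0.13 ± 0.079 SE). With the sexes averaged Plxna4 had -0.12 ± 0.04 SE, Plxna2 -0.09 ± 0.039 SE and Sema3a -0.08 ± 0.043 SE. Sema4d, lower in PND14 pups, had -0.02 ± 0.038 SE (adjusted p = 0.992). Since sex genes went against the label in 8 of 12 morphine and 4 of 12 saline 3-Tri libraries, the sex-specific values describe labels only, and the sex genes do not check the drug labels, on which the averaged values also rest.

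Whether the response differed between windows was tested directly. Between PND1 and PND14, with sexes averaged, it differed for 8 members, 5 higher and 3 lower at PND1, against 13.3% of all genes. Plxnb3 differed most (0.59 ± 0.148 SE, adjusted p = 0.00441), with a log2 fold change of 0.37 ± 0.161 SE at PND1 and -0.22 ± 0.06 SE at PND14, neither of which passed alone. Sema3f differed by -0.36 ± 0.077 SE (adjusted p = 0.00105), from -0.22 at PND1 and 0.14 at PND14, and Sema4d by 0.27 ± 0.059 SE (adjusted p = 0.00116), from 0.04 and -0.22. Sema6c (-0.30), Sema6b (-0.20), Sema6d (0.24), Sema5a (0.23) and Sema6a (0.19) made up the 8. After the GC and length correction 5 passed, which were Sema3f, Sema4d, Sema6d and Plxnb3 of these and Nrp1. Without the libraries against their sex label 7 passed.

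Between PND1 and 3-Tri the response differed for 8 members, 3 higher and 5 lower at PND1, against 8.43% of all genes, and this comparison reuses the PND1 libraries of the previous one. Sema6b differed most (-0.28 ± 0.062 SE, adjusted p = 0.00227). Sema4c (-0.26), Sema3f (-0.23), Sema6c (-0.19) and Plxnb2 (-0.17) were lower and Plxna4 (0.24), Sema3a (0.22) and Sema6d (0.20) higher at PND1. When libraries with sex genes opposite to their label were left out, 0 members passed. That removed 12 of 24 3-Tri and 4 of 24 PND1 libraries, so the effect of fewer libraries and that of the labels cannot be told apart. With the GC and length correction Plxna4, Plxnb3 and Nrp1 passed.

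Labelled sex itself was compared at PND14, where no library went against its label. There 0 of 31 members differed between females and males with drugs averaged (edgeR, and likewise DESeq2), 0 had an unadjusted p under 0.05, and 0.107% of all genes passed. Plxnd1 had the smallest p (-0.08 ± 0.049 SE, adjusted p = 0.98), and the X-linked Plxna3 and Plxnb3 did not pass. The male minus female response to morphine passed for 0 members at PND14 (3 at an unadjusted p under 0.05, beside 3.44% of all genes) and 0 in 3-Tri pups (1, beside 2.32%). The smallest p values were those of Sema3c at PND14 (0.18 ± 0.066 SE) and Plxna4 in 3-Tri pups (-0.20 ± 0.08 SE).

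Of the 38 partners, 7 changed in PND1 males, 2 higher and 5 lower, beside 14.4% of all genes. Those with the smallest p were the GTPase Rap1b (log2 fold change 0.16 ± 0.031 SE), which rose, and Dpysl4 (-0.23 ± 0.046 SE), a collapsin response mediator, the actin-severing Cfl1 (-0.22 ± 0.053 SE) and Mical1 (-0.20 ± 0.058 SE), which fell. With the sexes averaged 7 changed at PND1, 4 higher and 3 lower, beside 16.8% of all genes, led by Dpysl4 (-0.18 ± 0.035 SE). In PND14 males 2 rose, beside 0.280% of all genes called and 0.0815% called higher. They were Rac3 (0.37 ± 0.065 SE, adjusted p = 0.0124) and Dpysl3 (0.45 ± 0.089 SE, adjusted p = 0.0246), both of which fell between PND1 and PND14 in saline pups. With the sexes averaged at PND14 there were 4, beside 1.69% of all genes (0.626% higher and 1.06% lower). These added Dpysl5 (0.23 ± 0.053 SE) and, downward, Mical2 (-0.17 ± 0.04 SE). In PND1 and PND14 females and in 3-Tri pups of either sex 0 of 38 partners passed edgeR's test, with 8, 6, 4 and 0 at an unadjusted p under 0.05 in PND1 females, PND14 females, 3-Tri males and 3-Tri females, beside 11.7%, 10.5%, 4.98% and 2.41% of all genes.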

How the data were processed

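Per the study's methods and the submitters' processing notes, brain mRNA libraries were sequenced as paired reads, trimmed with Trim Galore 0.6.6, aligned with HISAT2 2.2.1 to GRCm38, stripped of duplicated fragments and counted per gene with featureCounts 2.0.1 on GENCODE annotation. The authors deposited these as raw counts, with no normalisation. Strand setting is not given in the sources used here. Removing duplicated fragments can lower the counts of abundant genes. The deposited tables that pair gene IDs with names also hold the authors' own fold changes and p-values, which were not used.

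From the counts, each comparison was tested with edgeR 4.0.16 (R 4.3.3; TMM scaling, quasi-likelihood F test, genes kept by filterByExpr at a minimum count of 10 and a minimum total of 15), with Benjamini-Hochberg adjustment over all genes tested and a threshold of 0.05. The saline groups of the 3 windows, and the responses of windows, were compared in a fit of all 72 libraries, morphine included. Morphine was compared with saline in a separate fit of the libraries of each window. Sexes averaged means the mean of the female and male effects. Named genes are all members called, in the age comparison with values for the 8 largest rises and falls, otherwise the 3 smallest p (1 for differences between sexes or windows), and for partners the 5 largest rises and falls with age and up to 4 called under morphine. Per kilobase values divide CPM by the joined exons in GENCODE M21, where 55141 of the 55401 gene IDs matched. GC content and length trends were taken out of each library by lowess with a span of 0.3. Scripts were tested on simulated data. Alternatives were DESeq2 1.42.0, limma 3.58.1 (voom), other scaling and filters, left-out libraries and replicate blocks. Totals ran from 3113919 to 27333125 counts per library, and a low member such as Sema3b had as few as 3 counts in a library. The gene family, the partner list and the marker lists were taken up with earlier results of these data known, and a gene belonged to the family by its symbol alone. No 2 libraries of a group agreed within sampling noise. A marker of the oligodendrocyte list is not reported here and was left out of its sums.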

Additional observations from a re-analysis of the deposited data

Results flagged for a closer look

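Of 128 values of a gene in a group of 4 to 7 libraries that were tested for a single library standing apart (Dixon's test at its 95% limit), 13 did so, where chance gives about 1 in 20. At PND14, saline male replicate 7 was the lowest of its group for Plxna3 (34.1 CPM against 38.8 to 41.6 in the others) and for Sema3f (15.9 against 17.6 to 18.5) and the highest for Sema6c (51.5 against 43.0 to 45.2). Saline male replicate 3 was lowest for Plxnb3 (27.2 CPM against 32.0 to 33.8), saline female replicate 6 highest for Sema3e (43.2 against 38.2 to 39.9), saline female replicate 12 lowest for Sema5a (93.1 against 112 to 122), and morphine female replicate 10 lowest for Sema3c (44.9 against 47.8 to 49.4).

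In the PND1 groups, saline female replicate 6 was highest for Sema4d (64.8 CPM against 52.0 to 55.6), saline male replicate 14 lowest for Sema6c (114 against 133 to 140) and morphine female replicate 2 highest for Sema3b (4.94 against 3.56 to 3.71). In the 3-Tri groups, saline female replicate 10 was highest for Plxna4 (186.5 CPM against 162 to 168), saline female replicate 6 lowest for Plxnb3 (25.3 against 30.7 to 33.7) and morphine female replicate 7 highest for Sema3a (39.4 against 32.1 to 34.7).

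The response to morphine differed between windows by a test of the difference itself. PND1 minus PND14 gave -0.36 for Sema3f, 0.27 for Sema4d, 0.23 for Sema5a, 0.19 for Sema6a, -0.20 for Sema6b, -0.30 for Sema6c, 0.24 for Sema6d and 0.59 for Plxnb3, each a difference of log2 fold changes. PND1 minus 3-Tri gave 0.22 for Sema3a, -0.23 for Sema3f, -0.26 for Sema4c, -0.28 for Sema6b, -0.19 for Sema6c, 0.20 for Sema6d, 0.24 for Plxna4 and -0.17 for Plxnb2, and both sets use the same PND1 libraries. With the GC and length correction Sema3f, Sema4d, Sema6d and Plxnb3 of the first set and Plxna4 of the second still passed. None of the second passed when libraries with sex genes opposite to their label were left out, which removed 12 of 24 3-Tri libraries.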

How the results depend on the processing

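Of 244 recomputed counts of called members 225 stayed within 1.5 times the count reported. These include the comparisons with 0 called members that stayed at 0, which say little about stability. The age comparison gave 27 to 30 called members against 28, and 3-Tri against PND1 saline 26 to 29 against 26. With the GC and length correction the count fell to 0 in PND1 males (0 also when the replicate block and this correction were used together), 2 with the sexes of PND1 averaged, 5 for PND1 minus PND14 and 3 for PND1 minus 3-Tri, and Sema6b turned to 0.015 for PND1 minus PND14 (adjusted p = 0.903). PND1 minus 3-Tri also fell to 2 without a filter on low counts and to 0 when libraries with sex genes opposite to their label were left out. At PND14, males rose to 2 and averaged sexes to 4, both with DESeq2 and with limma-voom taking the ID number as a random effect. The correlation within ID numbers was estimated at -0.022 at PND14. As the ID numbers lie within drug groups, this fit cannot separate them from the drug. The cause of these shifts was not tested, and the share of all genes passing in each setting is not given beside them. Leaving out 1 library or 1 ID number in turn gave 7 to 13 in PND1 males, 7 to 15 in PND1 with the sexes averaged, 0 to 1 in PND14 males and 0 to 2 in PND14 with the sexes averaged.

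Samples with the same replicate number did not deviate together in every pair of any group (correlations from -0.28 to 0.35), so the numbers were not taken as pairs. These are the numbers of the titles, which at PND1 run on from females to males, unlike those of the count columns. A pairing by the column numbers was not checked, and the block does not account for it. With the replicate number as a block the counts were 28 for PND14 against PND1, 27 for 3-Tri against PND1, 8 in PND1 males, of which 6 were among the 9 reported, and 1 in PND14 males. Depth limits Sema3b, Sema3d, Sema3g and, at PND1, Plxnb3, whose counts were lowest.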
